A study of Rattus norvegicus with 20 samples.

Results

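The genes described here encode the extracellular matrix of rat skeletal muscle, the integrin receptors that bind it and the proteases that cut it. They were all genes named by a single-symbol probe set whose symbol belongs to the numbered collagen (Col), laminin (Lam), metalloproteinase (Mmp), Timp, Adam or Adamts and integrin (Itg) series or is a nidogen, together with Fn1, Sparc, Dcn, Bgn, Lum, Fmod, Serpinh1, P4ha1, Eln, Fbn1, Tnc, Thbs1 and Vcan. This gave 66 of the 4737 genes named on the array. Of these, 45 had at least 1 probe set bright enough to test, out of 3582 genes tested in all. The 21 that were too dim were Col2a1, Col4a3, Col8a1, Col9a1, Col11a1, Lama1, Lama2, Lama5, Nid1, Mmp8, Mmp9, Mmp10, Mmp12, Mmp13, Mmp16, Adam1a, Adam3a, Adam4, Adam5, Adam6 and Adam18, and nothing is said of their levels.

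RNA came from rear-leg muscle in 4 groups of 5 arrays: normal rats, diabetic rats, diabetic rats that had received vanadyl sulfate, a salt of vanadium that mimics some effects of insulin, and normal rats that had received it. No strain, sex, age, means of inducing diabetes, name of the muscle, dose or duration is given in the labels. The labels do not say that replicates were separate animals, so each p-value reflects only how far these samples spread, which may be technical. In whole muscle, fewer cells of a type and less RNA per cell cannot be told apart.

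Muscle fibres and fibroblasts sit in a scaffold of secreted protein. Fibrillar collagens give the interstitial matrix its tensile strength. Each fibre and capillary is wrapped in a basement membrane of laminin, nidogen and type IV collagen, to which fibres attach through integrins. Metalloproteinases and Adam proteases cut these proteins and release factors bound to them, and the Timp proteins inhibit them.

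Median signals of the arrays were 377.3 to 647.8. Skeletal muscle markers were bright: 10 of 13 lay above the 90th percentile of the array in all 20 arrays. The beta-actin 3'/5' ratio (log2), a measure of RNA or labelling quality, spanned 0.58 to 3.01 across the normal arrays and 0.93 to 2.52 across the diabetic ones. With treatment it spanned 1.20 to 2.61 (diabetic) and 0.48 to 2.09 (normal). For Gapdh the same ratio was between 2.90 and 3.94 in 3 arrays (normal replicates 1 and 3 and treated diabetic replicate 1). No other array exceeded 1.31. Immune cell markers were higher in diabetic muscle, with 6 of 14 tested past the threshold and 0 lower. Their summed signal was 12699.5 to 20647 across the normal arrays and 27827 to 108188 across the diabetic ones. With treatment it was 13948 to 25095 (diabetic) and 18853 to 25199 (normal), and no gene of the list was at 0 in all 20 arrays. Among markers of fibroblasts 2 of 8 rose in diabetic muscle, among those of adipocytes 3 of 8 and among those of endothelium 1 of 11. The fibroblast list includes Lox, which also counts among the other matrix genes described below. In diabetic against normal muscle 2.07% of all genes tested passed in either direction. Markers of smooth muscle (7 tested), nerve and Schwann cells (9) and skeletal muscle (13) had no gene past the threshold in that comparison.

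The comparison of diabetic with normal muscle asks which matrix genes differ with diabetes. Col15a1 fell in diabetic muscle and was the only one of the 45 genes past the threshold (limma, adjusted p under 0.05), when each gene is read from its brightest probe set. Over all genes tested 74 passed, or 2.07%, against 1 of 45 (2.22%) here, so the share was near the background. Of genes that fell, the background was 26, or 0.726%. At the level of probe sets 2 of 65 passed, against 1.83% of all 6027. The second was a dimmer probe set of Timp1, which was higher in diabetic muscle. At an unadjusted p under 0.05 there were 9 of 45 genes (20%), against 16.4% of all genes. Of these 5 were higher and 4 lower, the latter against 6.81% of all genes. The median log2 difference was -0.19 over the 45 genes and -0.04 over all genes, and 19 of the 45 differences were positive, against 46.6% of all genes.

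Col15a1 (rc_AA800298_at) encodes the core protein of type XV collagen, a proteoglycan that ties the basement membrane of muscle fibres and capillaries to the matrix around it. Its signal in the 5 arrays was 1517, 2525, 2092, 1919.5 and 1275 in normal muscle and 689, 812, 556, 809 and 739.9 in diabetic muscle. In treated diabetic muscle it was 1481, 1882, 1711, 961 and 1670.5, and in treated normal muscle 2159, 1646, 1902, 1493 and 544. All 5 diabetic arrays lay below every normal array and every treated diabetic array, and the last treated normal array was lower than any diabetic one. The mean log2 signal was 10.84 ± 0.38 (SD, n = 5) in normal and 9.51 ± 0.22 (SD, n = 5) in diabetic muscle, a 2.50-fold fall (log2 difference -1.32 ± 0.31, SE, adjusted p = 0.0348). Groups that did not overlap were seen in 3 of the 45 genes (Col15a1, Col3a1 and Fmod), against 5.42% of all genes. The call did not hold when any of normal replicates 2, 3, 4 or 5 or diabetic replicates 1, 3 or 5 was left out, with adjusted p from 0.0508 to 0.122 and a difference between -1.45 and -1.21. When both 3'/5' ratios entered as covariates the difference was -1.20 (adjusted p = 0.165).

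Timp1, a secreted inhibitor of most metalloproteinases, was measured by a pair of probe sets designed on the same sequence. On rc_AI169327_g_at, the dimmer, the signal was 604, 501, 674, 481 and 364 in normal and 2756, 3438, 2861, 2946 and 481 in diabetic muscle. It was 613, 931, 848, 204 and 203 in treated diabetic and 564, 542, 886, 586 and 326 in treated normal muscle. The first 4 diabetic arrays stood above all others, and the fifth lay within the range of the normal group. On this probe set Timp1 rose 3.96-fold in diabetic muscle (log2 difference 1.98 ± 0.50, SE, adjusted p = 0.0462). The brighter rc_AI169327_at, which stands for the gene, read 1856, 1710.2, 3662, 3318 and 2296 in normal and 4696.5, 5677, 4616, 5467 and 2082 in diabetic arrays, with the same array low among the diabetic ones. Its difference was 0.79 ± 0.31 and did not pass (SE, adjusted p = 0.197). The call on the dimmer probe set was lost when any of normal replicates 2 to 5, diabetic replicates 1 to 4, treated diabetic replicate 1 or treated normal replicates 1 to 4 was left out (adjusted p from 0.0505 to 0.146), and without diabetic replicate 5 the difference was 2.50 (adjusted p = 0.00284). The immune cell markers given above were higher in the same diabetic group. Their summed signal in its replicates 1 to 5 was 108188, 36556, 101759, 38686 and 27827. The sum was higher in replicates 1 and 3 than in 2 and 4, and Timp1 was similar in these 4 arrays. Replicate 5 had the lowest sum of the group and also the lowest Timp1 on both probe sets. The part of immune cells in the Timp1 difference was not tested.

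The stretches of 250 bases before the annotated start of Col15a1 and of Timp1, which passed on its dimmer probe set alone, are shown for reference (RefSeq, build GRCr8, written 5′ to 3′ on the strand of the gene). Entries were found for 44 of the 66 genes. Capitals mark matches, on either strand, to the AP-1 site TGANTCA, its variant TGAGTAA, the TATA box TATAAA, the CCAAT box and the GC box GGGCGG.
Col15a1, chr5:66297296-66297545, + strand: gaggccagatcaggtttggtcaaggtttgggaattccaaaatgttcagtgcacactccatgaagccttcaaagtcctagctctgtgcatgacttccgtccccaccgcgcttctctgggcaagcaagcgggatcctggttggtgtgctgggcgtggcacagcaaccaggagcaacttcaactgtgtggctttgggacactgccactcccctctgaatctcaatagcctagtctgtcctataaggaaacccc
Timp1, chrX:3771123-3771372, - strand: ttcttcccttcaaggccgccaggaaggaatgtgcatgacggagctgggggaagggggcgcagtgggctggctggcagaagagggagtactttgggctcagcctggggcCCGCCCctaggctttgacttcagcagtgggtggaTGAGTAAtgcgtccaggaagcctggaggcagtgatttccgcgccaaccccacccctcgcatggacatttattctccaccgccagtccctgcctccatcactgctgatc
The Timp1 stretch held TGAGTAA, beginning 108 bases before the start, and GGGCGG, on the opposite strand, beginning 142 bases before it. Over 33469 RefSeq stretches of the same length, 2.38% held TGAGTAA and 30.5% held GGGCGG. The Col15a1 stretch held none of these words. The shares for the words found in neither were 6.34% for TGANTCA, 12.9% for TATAAA and 34.0% for CCAAT. A match is a description of the letters and not a mapped binding site.

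**Figure D1:**
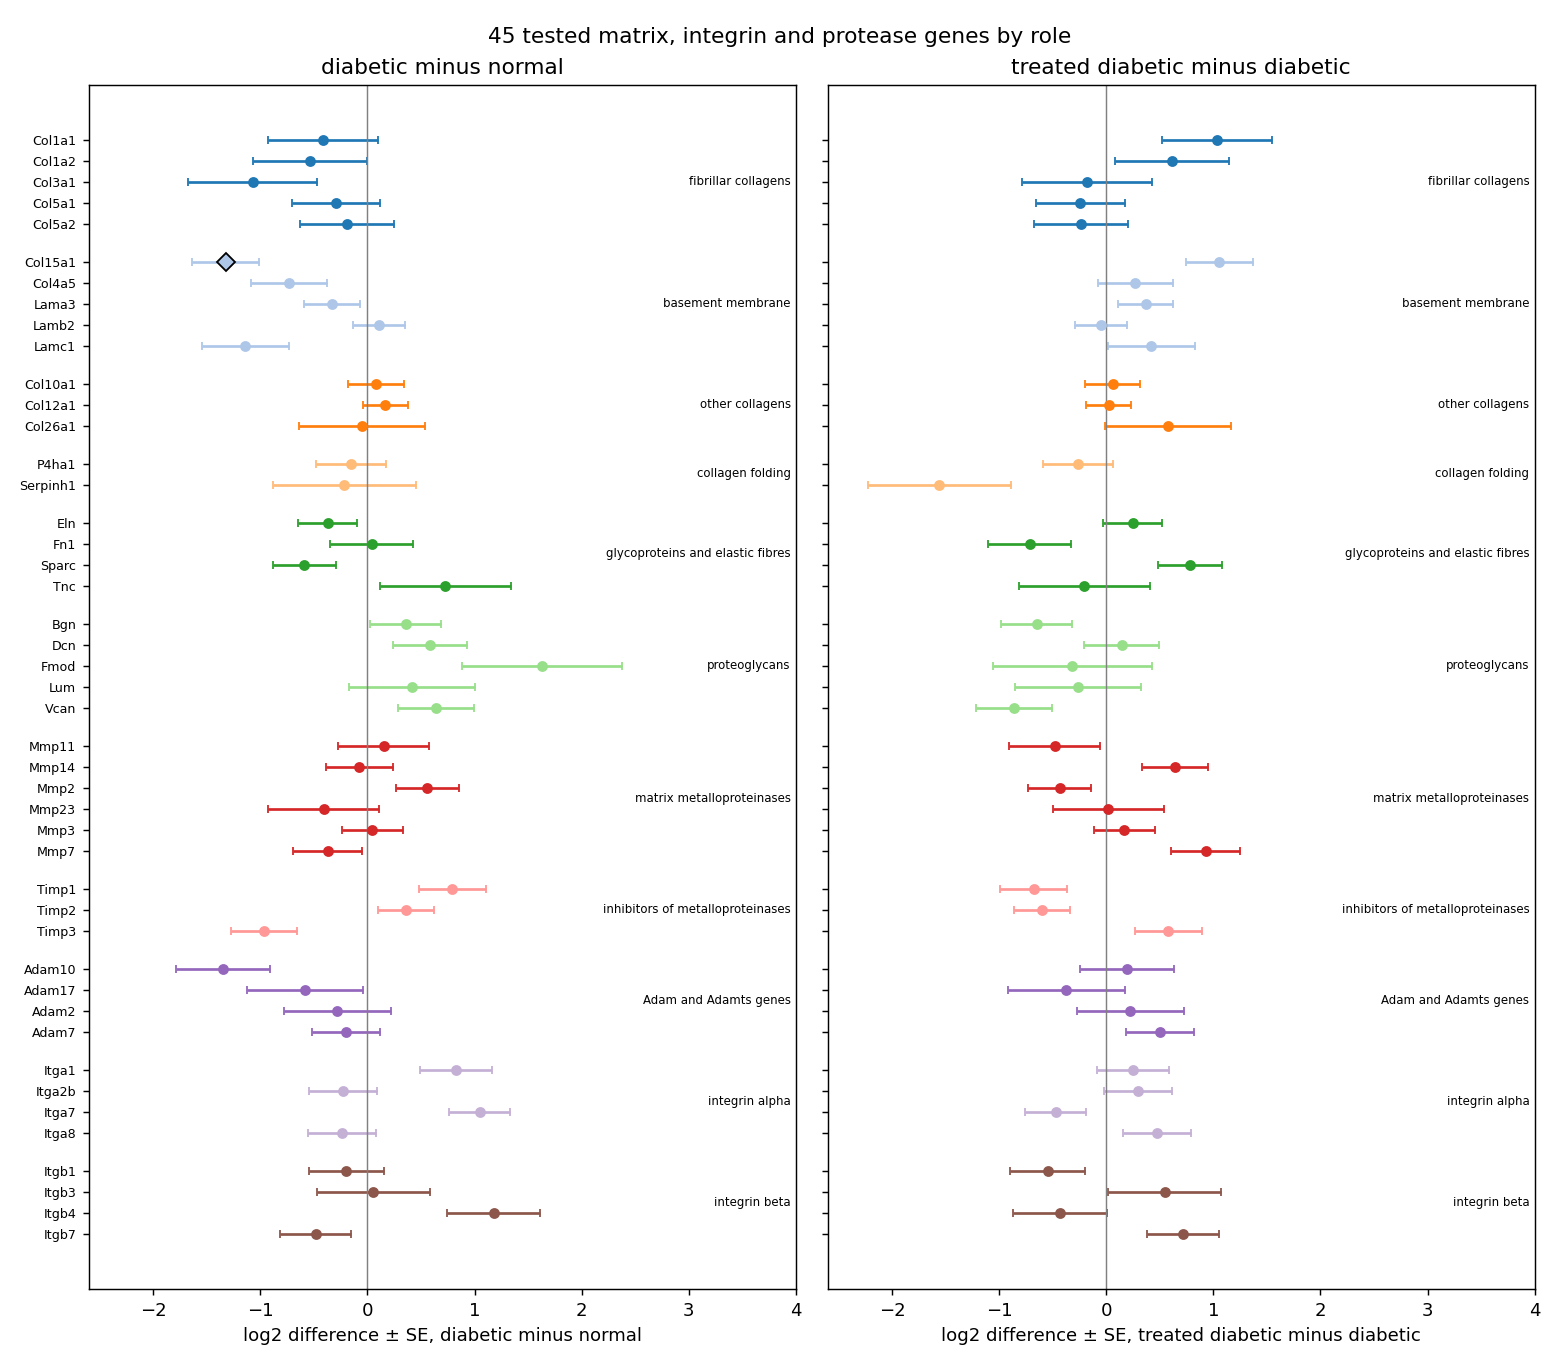
Log2 difference with its SE for the 45 tested genes, grouped by role, in diabetic minus normal muscle (left) and treated diabetic minus diabetic muscle (right). The diamond marks the 1 gene past the threshold, Col15a1 at -1.32 on the left. No gene passed on the right. Both panels share the 5 diabetic arrays.

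The fibrillar collagens form the striated fibres of the interstitial matrix. All 5 tested genes had negative differences in diabetic muscle, with a median of -0.42 and a range from -1.07 to -0.19, and none passed (adjusted p from 0.378 to 0.869). Some of these chains varied together from array to array, as given below, so the 5 signs are not independent. Col3a1 (X70369_s_at), the chain of type III collagen, read 22837, 32898, 22935.5, 24573 and 25703.5 in normal and 9582, 14351, 11544, 12206 and 13615 in diabetic muscle, so that all 5 diabetic arrays lay below all 5 normal ones. Its treated groups were wide: 10898, 33698, 14678, 5356 and 4891 in treated diabetic and 24867, 20439.9, 25888, 16522 and 1591 in treated normal muscle. The difference of -1.07 ± 0.60 (SE) had an adjusted p of 0.378 in the fit to all 4 groups, and of 0.0424 when only the normal and diabetic arrays were fitted, with an SE of 0.22. Its second probe set gave -1.21.

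Col1a1 (M27207mRNA_s_at) and Col1a2 (rc_AA875531_s_at), the chains of type I collagen, had differences of -0.42 ± 0.51 (SE, adjusted p = 0.72) and -0.54 ± 0.53 (SE, adjusted p = 0.636). Col1a1 read 26793.5, 11903.5, 40950.1, 12673.5 and 11395 in normal and 22328, 7916, 18949.9, 10898 and 12138 in diabetic arrays, which overlapped. All 4 Col1a1 probe sets were negative, from -1.32 to -0.42. Col1a2 read 21884, 16964, 26091, 13901 and 9329 in normal and 13236, 11438, 10981, 11903.5 and 9799 in diabetic muscle. The diabetic arrays were close together, and the normal ones spread around and above them. Col5a1 and Col5a2, chains of the type V collagen that starts such fibrils, had differences of -0.29 and -0.19.

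**Figure D2:**
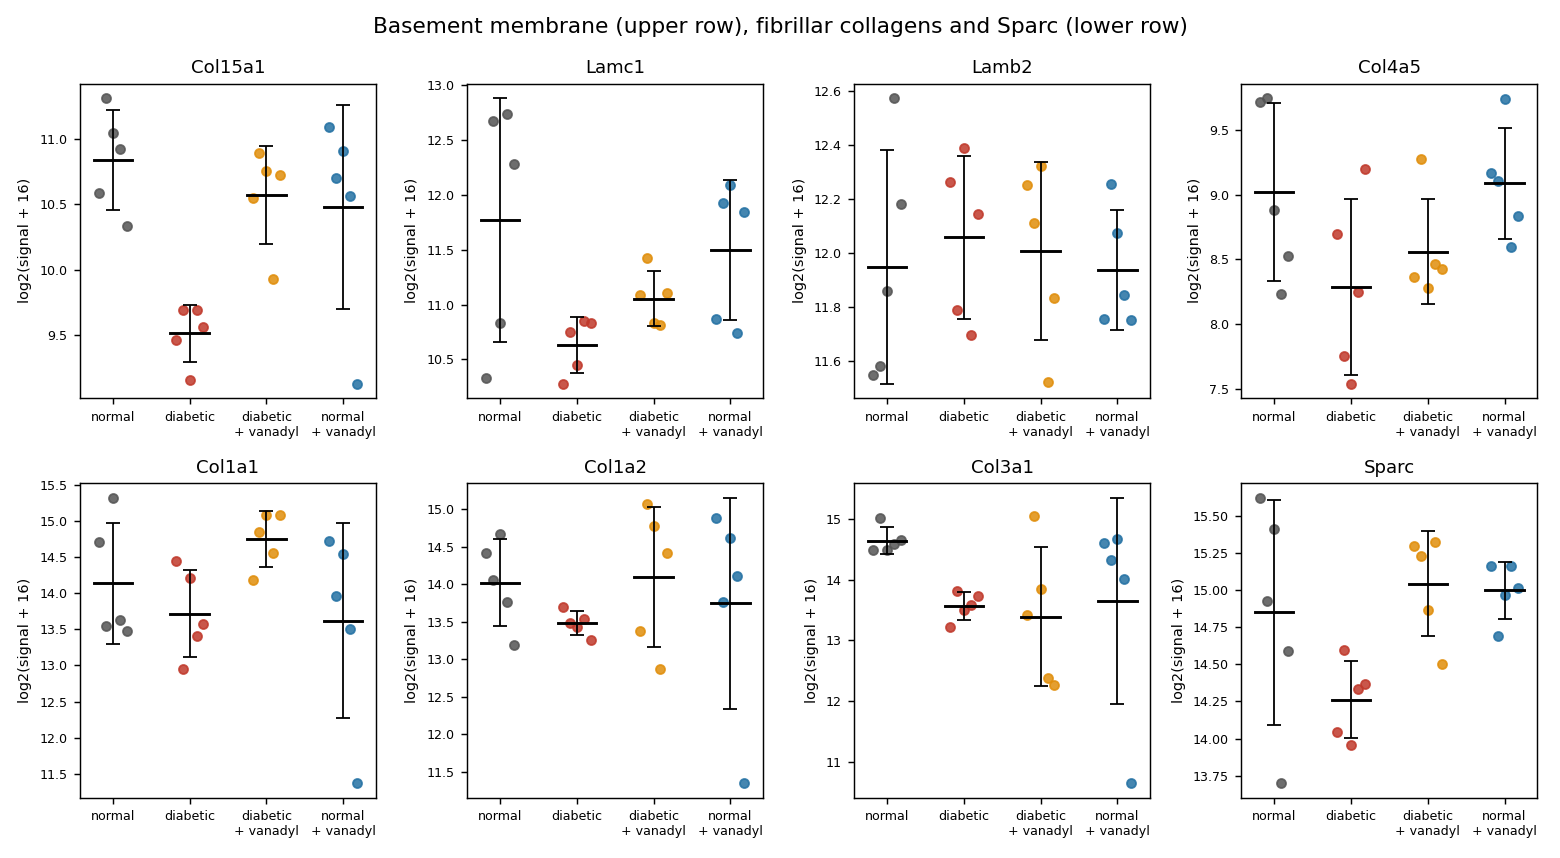
Log2(signal + 16) of 8 genes in each array, by group (5 arrays each); bars are the mean and SD. Diabetic arrays of Col15a1 and Col3a1 lie below all normal arrays, and the last treated normal array is low for Col15a1, Col1a1, Col1a2 and Col3a1.

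Some pairs of fibrillar chains varied together from array to array. Over the 20 arrays, Pearson's r ran from 0.169 to 0.804 in the 10 pairs. After adjustment over the 10 pairs 6 passed, of which 5 also passed for Spearman's rho. Pairs of other genes were not examined, and the permutations moved arrays across groups. These values therefore do not show that such co-variation was particular to collagens. Col1a1 and Col1a2, partners in type I collagen, had r = 0.804 (permutation p = 0.00013, adjusted p = 0.00065) and Spearman's rho = 0.675 (permutation p = 0.00152, adjusted p = 0.00587). Without the 2 arrays farthest from the median Col1a1 signal r was 0.624, and within groups it was 0.825. Col1a2 and Col5a2 had r = 0.795 (permutation p = 2e-05, adjusted p = 0.0002) and rho = 0.668 (permutation p = 0.00176, adjusted p = 0.00587), with r = 0.618 without 2 arrays and 0.863 within groups. Col3a1 went with Col5a1 (r = 0.701, rho = 0.743, permutation p = 0.00068 and 0.00017, adjusted p = 0.00192 and 0.0017) and with Col5a2 (r = 0.713, rho = 0.595, permutation p = 0.00077 and 0.00654, adjusted p = 0.00192 and 0.0156). Without 2 arrays these became 0.544 and 0.66. Col1a2 and Col3a1 had r = 0.714 and rho = 0.582 (permutation p = 0.00123 and 0.00779, adjusted p = 0.00246 and 0.0156), falling to r = 0.378 without 2 arrays. The relation of Col1a1 with Col5a2 (r = 0.52, rho = 0.329, permutation p = 0.0203 and 0.156, adjusted p = 0.0339 and 0.223) rested on such arrays, since r was 0.107 without them. Of the 4 pairs that did not pass, 3 turned negative without 2 arrays: Col1a1 with Col3a1 (r from 0.412 to -0.165), Col1a1 with Col5a1 (from 0.169 to -0.14) and Col1a2 with Col5a1 (from 0.288 to -0.06). Treated normal replicate 5 was the lowest array for several chains at once, at 2625 for Col1a1, 2578 for Col1a2, 1591 for Col3a1 and 1032 for Col5a2.

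**Figure D3:**
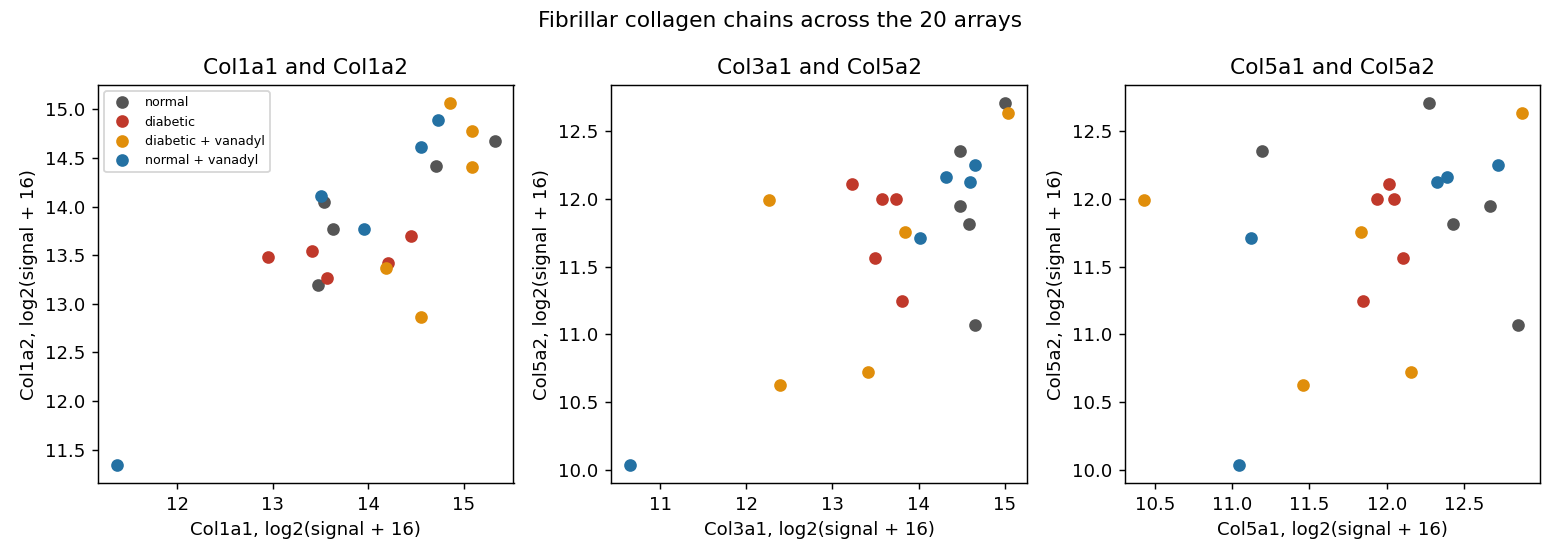
Log2(signal + 16) of pairs of fibrillar collagen genes over the 20 arrays, coloured by group. Col1a1 and Col1a2 vary together (r = 0.804) and so do Col3a1 and Col5a2 (r = 0.713), whereas Col5a1 and Col5a2 give r = 0.299. The point at the lower left of the first 2 panels is treated normal replicate 5.

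Neither gene of collagen folding passed in diabetic muscle. Serpinh1, the collagen chaperone of the endoplasmic reticulum, differed by -0.21 ± 0.67 (SE, adjusted p = 0.906), and P4ha1, a catalytic subunit of prolyl hydroxylase, by -0.16 ± 0.33 (SE, adjusted p = 0.851). P4ha1 went down as the beta-actin ratio went up (r = -0.611, rho = -0.644, permutation p = 0.00427 and 0.00241, adjusted p = 0.0327 and 0.0158 over 46 relations, r = -0.611 without 2 arrays). Serpinh1 passed on rho but not on r (r = -0.452, rho = -0.588, permutation p = 0.0255 and 0.0075, adjusted p = 0.106 and 0.0314, r = -0.463 without 2 arrays). How many of all genes tested followed this ratio was not computed, here or for the genes below.

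Among basement membrane genes, 4 of 5 had negative differences. Lamc1 (X94551_at), the laminin gamma chain of most muscle laminins, read 1273, 6520.5, 1802, 6832 and 4955 in normal and 1225, 1711, 1384, 1825 and 1810.4 in diabetic arrays. The diabetic arrays were close together, and normal replicates 2, 4 and 5 were far above them while 1 and 3 were not. The difference was -1.14 ± 0.41 (SE, adjusted p = 0.152). Over the 20 arrays Lamc1 went down as the beta-actin 3'/5' ratio went up (r = -0.789, permutation p = 6e-05, rho = -0.737, permutation p = 0.00025, adjusted p = 0.0023 and 0.00575 over 46 relations, r = -0.808 without 2 arrays and -0.819 within groups). Without the 3 arrays of high Gapdh ratio, which include normal replicates 1 and 3, its difference was -1.93 (adjusted p = 0.00305), and, given both ratios as covariates, -0.91 (adjusted p = 0.212). Col4a5, a type IV collagen chain, differed by -0.73 ± 0.35 (SE, adjusted p = 0.302), and Lama3, a laminin alpha chain best known from epithelia, by -0.33 ± 0.26 (SE, adjusted p = 0.533). Lamb2, the laminin beta chain concentrated at the neuromuscular junction, gave 0.11 ± 0.24 (SE, adjusted p = 0.862) on its brighter probe set and -0.82 on the other. For Col15a1 itself r with the beta-actin ratio was -0.202.

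The other collagens lay near 0 in diabetic muscle. Col10a1 differed by 0.08, Col12a1 by 0.17 and Col26a1 by -0.05 (adjusted p from 0.732 to 0.978). Of the glycoproteins, Sparc (rc_AA892248_at), a collagen-binding protein secreted by fibroblasts and endothelium, read 50508.5, 31159.8, 43649.6, 13265 and 24602 in normal and 16891, 24791.5, 15899.6, 20686 and 21175 in diabetic muscle. Normal replicates 1 to 3 were above all diabetic arrays, and normal replicate 4 was below them all. The difference was -0.59 ± 0.30 (SE, adjusted p = 0.322), and all 4 Sparc probe sets were negative, from -1.89 to -0.32. Elastin, Eln, gave -0.37 ± 0.28 (SE, adjusted p = 0.511), fibronectin, Fn1, 0.04 ± 0.39 (SE, adjusted p = 0.972) and tenascin C, Tnc, 0.73 ± 0.61 (SE, adjusted p = 0.565). The Fn1 probe sets did not point one way, running from -1.07 to 0.04.

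None of the 5 tested proteoglycans passed in diabetic muscle. Read from the brightest probe set, all 5 differences were positive, with a median of 0.58 and a range from 0.36 to 1.63 (adjusted p from 0.273 to 0.761), but the other probe sets of Fmod and Bgn were negative. Fmod (X82152_at), fibromodulin, a small leucine-rich proteoglycan that binds collagen fibrils, read 1556, 806, 1380.4, 1219 and 144 in normal and 2896, 1823, 2105, 1832 and 4768 in diabetic muscle. Every diabetic array was above every normal one, and normal replicate 5 lay far below its group. The difference was 1.63 ± 0.75 (SE, adjusted p = 0.273), while its other probe set gave -1.14 ± 0.34 (SE, adjusted p = 0.0902). Dcn (X59859_i_at), decorin, of the same family, read 56910, 42381, 171500, 32216 and 30845 in normal and 83359, 87983, 105133, 58257 and 69208 in diabetic arrays. Normal replicate 3 was the highest of the 10 arrays and the other normal arrays were all below the diabetic ones. The difference was 0.58 ± 0.35 (SE, adjusted p = 0.409) with all arrays and 1.01 (adjusted p = 0.0381) without normal replicate 3. No other run with 1 array left out passed for Dcn, and adjusted p reached 0.675. Dcn had r = 0.538 and rho = 0.588 with the beta-actin ratio (permutation p = 0.0129 and 0.00701, adjusted p = 0.0592 and 0.0314, r = 0.642 without 2 arrays). All 4 Dcn probe sets were positive, from 0.57 to 0.93. Vcan, versican, differed by 0.64, Lum, lumican, by 0.42 and Bgn, biglycan, by 0.36, while the second Bgn probe set gave -0.82 ± 0.36 (SE, adjusted p = 0.239) and the mean of both -0.23.

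The metalloproteinases had 3 positive and 3 negative differences, none past the threshold. Mmp2, the gelatinase made by fibroblasts, was the gene with the largest difference (0.56 ± 0.30, SE, adjusted p = 0.349). On U65656_at it read 2393.5, 3019, 2383, 2848.5 and 2790.5 in normal and 5086, 2454, 5224, 3148 and 4659.5 in diabetic muscle, with 4 of 5 diabetic arrays above all normal arrays. On the dimmer X71466_at the difference had the other sign, -0.90 ± 0.34 (SE, adjusted p = 0.169). Mmp23 gave -0.41, Mmp7, matrilysin, -0.37, Mmp11 0.15, Mmp14, the membrane-bound activator of Mmp2, -0.07 and Mmp3, stromelysin, 0.04.

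The 3 inhibitors did not move one way. Timp2, which also takes part in activating Mmp2, differed by 0.36 ± 0.26 (SE, adjusted p = 0.5). Timp3 (U27201_at), the inhibitor bound to the matrix, read 597, 1329.8, 856, 1358 and 844 in normal and 238, 871, 437, 624 and 443 in diabetic arrays, and diabetic replicates 2 and 4 reached the normal range. Its difference was -0.97 ± 0.31 (SE, adjusted p = 0.117). It followed the beta-actin ratio too (r = -0.756, permutation p = 0.0001, rho = -0.835, permutation p = 1e-05, the smallest these permutations can give, adjusted p = 0.0023 and 0.00046, r = -0.778 without 2 arrays and -0.817 within groups). The difference was -1.24 (adjusted p = 0.0401) without the 3 arrays of high Gapdh ratio and -0.71 (adjusted p = 0.234) with the ratios as covariates. For Timp1 r with that ratio was -0.05 and 0.02 on the brighter and the dimmer probe set.

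**Figure D4:**
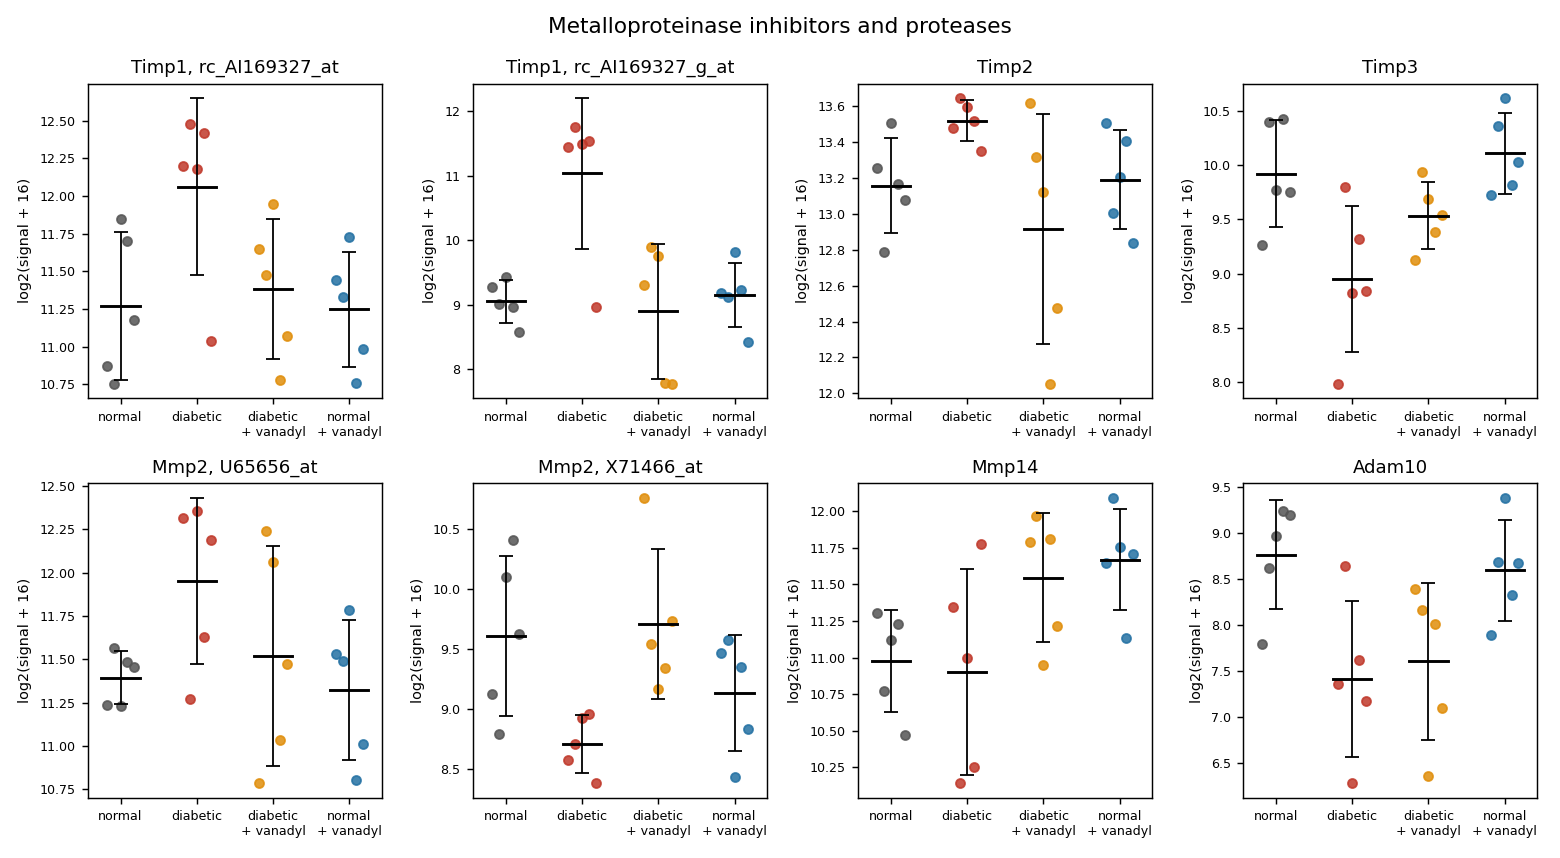
Log2(signal + 16) in each array for the Timp genes, Mmp2 on both probe sets, Mmp14 and Adam10, by group (5 arrays each); bars are the mean and SD. On the dimmer Timp1 probe set 4 diabetic arrays stand above all others, and the Mmp2 probe sets give differences of opposite sign, 0.56 and -0.90.

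All 4 tested Adam genes had negative differences. Adam10 (Z48444cds_at), a membrane protease that sheds receptors and Notch ligands, read 206, 378, 484, 587 and 570.3 in normal and 148, 383, 62, 180.3 and 129 in diabetic muscle, with 4 of 5 diabetic arrays below all normal ones. All diabetic signals and most normal ones lay below the median signal of their array, and there are no detection calls. The difference was -1.35 ± 0.44 (SE, adjusted p = 0.118). Without normal replicate 1 it was -1.59 (adjusted p = 0.0486), and, given both ratios as covariates, -0.82 (adjusted p = 0.471). No other run with 1 array left out passed for Adam10, and adjusted p reached 0.31. Adam17, which releases tumour necrosis factor, gave -0.58, Adam2 -0.28 and Adam7 -0.20. Over the 20 arrays both Adam10 (r = -0.622, rho = -0.705, permutation p = 0.00358 and 0.00078, adjusted p = 0.0327 and 0.00931, r = -0.738 without 2 arrays) and Adam17 (r = -0.694, rho = -0.687, permutation p = 0.00104 and 0.00118, adjusted p = 0.0122 and 0.0109, r = -0.765 without 2 arrays) followed the beta-actin ratio.

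Of the integrin genes, Itga7 (X65036_at) came nearest to the threshold. It encodes the alpha chain of the main laminin receptor of muscle fibres. The signal was 8650.1, 5675, 17029, 8204 and 7259 in normal and 20572, 18534, 22507, 14420.4 and 15229.8 in diabetic muscle. In treated diabetic muscle it was 12542, 8289, 12291, 13102 and 21977 and in treated normal muscle 11136, 7554, 7797.5, 10188 and 10629. Only normal replicate 3 reached the diabetic range among the normal arrays. The difference was 1.05 ± 0.29, or 2.07-fold (SE, adjusted p = 0.0627), and its other probe sets gave 0.34 and 0.79. Without normal replicate 3 the difference was 1.29 (adjusted p = 0.0151). Of the runs with 1 array left out 2 passed for Itga7, and adjusted p reached 0.185 in the others. Its r with the beta-actin ratio was 0.549 (rho = 0.62, permutation p = 0.0125 and 0.00403, adjusted p = 0.0592 and 0.0232, r = 0.749 without 2 arrays), and, given both ratios as covariates, the difference was 1.06 (adjusted p = 0.133).

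Itga1, a collagen receptor chain, read 2775, 913, 1711, 1846 and 2029.8 in normal and 4195, 2509.6, 3369, 3177 and 2591 in diabetic muscle, a difference of 0.83 ± 0.34 (SE, adjusted p = 0.208). Only normal replicate 1 reached the diabetic range. Itgb4, the beta chain of epithelial hemidesmosomes, differed by 1.18 ± 0.44 (SE, adjusted p = 0.166). Its normal signals, 154 to 343, all lay below the median signal of their array. Diabetic replicate 4 was low for Itgb4, at 127.5, and without it the difference was 1.63 (adjusted p = 0.0267). No other run with 1 array left out passed for Itgb4, and adjusted p reached 0.388. Itgb1 (rc_AI177366_at), the common beta chain that pairs with Itga1 and Itga7, had a difference of -0.20 ± 0.35 (SE, adjusted p = 0.813). Itga2b and Itgb3, the chains of the platelet receptor for fibrinogen, gave -0.23 and 0.05, and Itga8 and the leukocyte chain Itgb7 gave -0.24 and -0.48. Itga1 (r = 0.674, rho = 0.71, permutation p = 0.00106 and 0.00081, adjusted p = 0.0122 and 0.00931, r = 0.668 without 2 arrays) and Itgb4 (r = 0.595, rho = 0.666, permutation p = 0.00563 and 0.00167, adjusted p = 0.037 and 0.0128, r = 0.822 without 2 arrays) followed the beta-actin ratio upward, and so did Itgb3 (r = 0.594, rho = 0.608, permutation p = 0.00679 and 0.00532, adjusted p = 0.039 and 0.0272, r = 0.53 without 2 arrays).

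**Figure D5:**
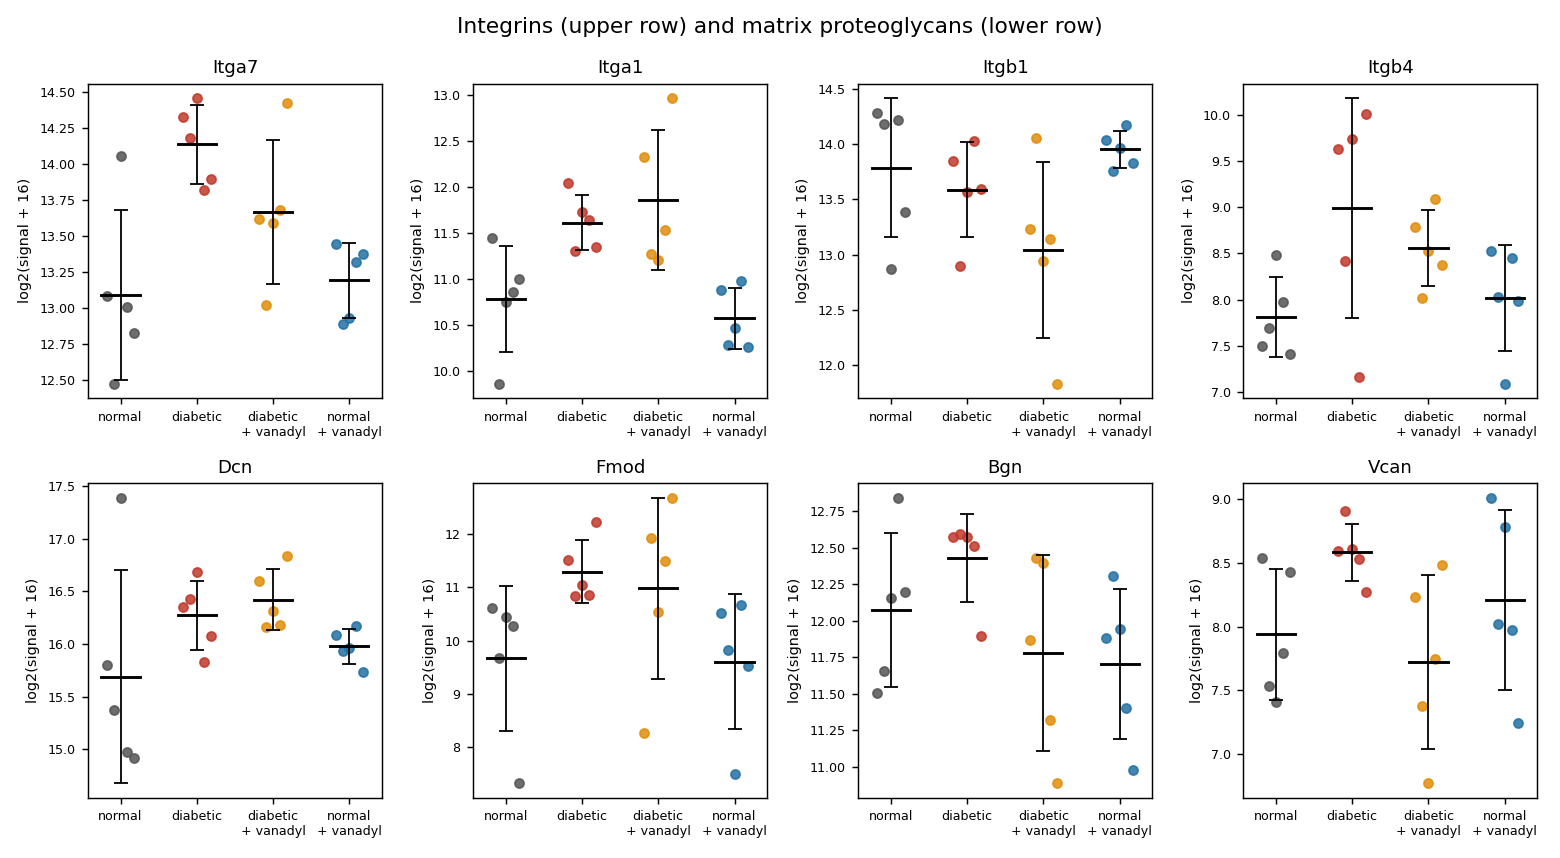
Log2(signal + 16) in each array for 4 integrin chains and 4 proteoglycans, by group (5 arrays each); bars are the mean and SD. Diabetic arrays are above most normal arrays for Itga7 (difference 1.05) and Itga1 (0.83), but not for Itgb1 (-0.20).

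The comparison of treated with untreated diabetic muscle asks what vanadyl sulfate changed in diabetic rats. It uses the same 5 diabetic arrays as the comparison above. With limma 0 of the 45 genes passed, against 23 or 0.642% of all genes. At an unadjusted p under 0.05 there were 8 (17.8%), against 15.7% of all genes; 4 were higher and 4 lower, the latter against 6.84% of all genes. Groups did not overlap for 1 gene, Col15a1, against 4.49% of all genes. The median difference was 0.06 over the 45 genes and 0.10 over all genes.

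Col15a1 gave 1.06 ± 0.31, or 2.08-fold (SE, adjusted p = 0.122), with all 5 treated arrays above all 5 untreated ones; without treated normal replicate 5, which enters only the estimate of the spread, the same difference had an adjusted p of 0.0441. For Col15a1 no other run with 1 array left out passed, and adjusted p reached 0.282. On the dimmer Timp1 probe set the difference was -2.13 ± 0.50 (SE, adjusted p = 0.0625), with all 5 treated arrays below the diabetic mean. It was -2.65 (adjusted p = 0.00226) without diabetic replicate 5. Of the runs with 1 array left out 3 passed on this probe set, and adjusted p reached 0.189 in the others. On the brighter probe set the difference was -0.68 ± 0.31 (SE, adjusted p = 0.286). Timp2 gave -0.60 ± 0.26 (SE, adjusted p = 0.263) and Timp3 0.58 ± 0.31 (SE, adjusted p = 0.363).

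Serpinh1 (M69246_at) read 2205, 3816, 2366, 4067.5 and 2765 in diabetic and 894, 4817, 1886.5, 1446 and 69.7 in treated diabetic muscle. No treated array lay within the untreated range. The array at 4817 was above it and the others were below it, replicate 5 the farthest. The difference was -1.56 ± 0.67 (SE, adjusted p = 0.26), and it ran from -2.12 to -0.67 with 1 array left out at a time. The relation of Serpinh1 to the beta-actin ratio is given above. Mmp7 (L24374_at) read 409, 389.5, 642.5, 592 and 776 in diabetic and 1010.4, 694, 1398, 667 and 1917 in treated diabetic muscle, a difference of 0.93 ± 0.32 (SE, adjusted p = 0.182). Sparc gave 0.78 ± 0.30 (SE, adjusted p = 0.219), with treated values of 40266, 38491, 29933, 41076 and 23149, of which only replicate 5 lay within the diabetic range. Vcan gave -0.86 ± 0.35 (SE, adjusted p = 0.246) and Itgb7 0.72 ± 0.33 (SE, adjusted p = 0.289). Col1a1 had 1.03 ± 0.51 (SE, adjusted p = 0.327), Col1a2 0.62, Col3a1 -0.18, Col5a1 -0.24 and Col5a2 -0.24. Itga7 gave -0.47, Itgb1 -0.55, Mmp14 0.64, Fn1 -0.71 and Bgn -0.65, none past the threshold. The dimmer probe sets of Fn1 had the other sign (0.73 and 0.72), and so had that of Bgn (0.69). For Sparc the 4 probe sets ran from -0.12 to 0.94.

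Probe sets of the same gene often did not point one way. Of the 12 genes with several tested probe sets, 7 had all of one sign in diabetic against normal muscle and 5 did not (Bgn, Fmod, Fn1, Lamb2 and Mmp2). In treated against untreated diabetic muscle 5 had all of one sign and 7 did not (Bgn, Dcn, Fmod, Fn1, Lamb2, Mmp2 and Sparc). For Dcn in that comparison the 4 probe sets ran from -1.21 to 0.48, and for Mmp2 X71466_at gave 1.00 while U65656_at gave -0.43.

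In normal rats, vanadyl sulfate gave 0 of 45 genes past the threshold with limma, against 0.0558% of all genes, and 2 (4.44%) at an unadjusted p under 0.05, against 9.69%. Col10a1, the collagen of hypertrophic cartilage, read 408, 516, 833, 689 and 826 without and 915, 1619, 1488, 756 and 1021 with treatment, a difference of 0.80 ± 0.26 (SE, adjusted p = 0.396). Mmp14 gave 0.69 ± 0.31 (SE, adjusted p = 0.516). Treated diabetic against normal muscle, which asks how far treated rats lay from normal, gave 0 genes among the 45 and 0% of all genes with limma. At an unadjusted p under 0.05 there were 5 (11.1%), the same share as the 11.1% of all genes. Here Col15a1 differed by -0.27 ± 0.31 (SE, adjusted p = 0.727), Serpinh1 by -1.77 ± 0.67 (SE, adjusted p = 0.337), Adam10 by -1.16 ± 0.44 (SE, adjusted p = 0.337) and Itga1 by 1.08 ± 0.34 (SE, adjusted p = 0.27).

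The interaction asks whether treatment acted differently in diabetic and normal rats. It gave 0 of 45 genes with limma, against 0.168% of all genes, and 4 (8.89%) at an unadjusted p under 0.05, against 13.1%. Col15a1 had 1.42 ± 0.44 (SE, adjusted p = 0.164), Col1a1 1.55 ± 0.73 (SE, adjusted p = 0.365), Mmp7 1.00 ± 0.45 (SE, adjusted p = 0.342) and Vcan -1.13 ± 0.50 (SE, adjusted p = 0.336). The dimmer Timp1 probe set gave -2.24 ± 0.70 (SE, adjusted p = 0.164). Other dimmer probe sets lay as near the threshold: Dcn Z12298cds_s_at at -1.97 ± 0.61 (SE, adjusted p = 0.162) and Mmp2 X71466_at at 1.48 ± 0.48 (SE, adjusted p = 0.171). The brightest probe sets of Timp1, Dcn and Mmp2 gave -0.66, -0.14 and -0.36.

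Other matrix genes, listed apart from the rule above, were also read in diabetic muscle. Of 83 listed, 45 were on the array and 38 were tested, and 6 rose while 0 fell, beside 2.07% of all genes in either direction, with a median difference of 0.16 (-0.04 over all genes). Beside Spp1, Spock2 and Thbs4, secreted matrix proteins, these were the crosslinking enzyme Lox (1.36 ± 0.27, SE, adjusted p = 0.0146), Ltbp1, which anchors latent TGF-beta in the matrix (1.32 ± 0.30, SE, adjusted p = 0.0299), and Plat, tissue plasminogen activator (1.37 ± 0.33, SE, adjusted p = 0.0433). With treatment in diabetic rats 0 rose and 2 fell (Spp1 and Thbs4), beside 0.642% of all genes in either direction, with a median of -0.33 (0.10 over all genes). The list was drawn up with earlier results of these data known.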

How the data were processed

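RNA from rat rear-leg muscle was measured on 20 one-colour Affymetrix arrays, 5 in each of 4 groups. The deposited values are signal intensity per probe set on a linear scale, for which the submitters' processing notes name MAS5 without a version. After trimming 2% at each end the mean signal lay between 2503.4 and 2506.46 in all arrays, so the authors' scaling was kept. The table has no detection calls; the number of arrays limits the precision. Values were analysed as log2(signal + 16). Of 8799 probe sets, 59 controls were left out, and 6027 were tested, those brighter than the 40th percentile of the array in 5 or more of the 20 arrays. Genes were named from the platform annotation where a probe set has 1 symbol, and the tested probe set with the highest mean log2 signal stands for a gene.

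The 20 arrays were fitted together in limma 3.58.1 under R 4.3.3, with lmFit and eBayes, 1 mean per group and no covariates. Tests were two-sided and p-values adjusted by Benjamini-Hochberg over all 6027 probe sets, with a threshold of 0.05; every adjusted p of a difference comes from limma. Correlations across arrays used 100000 permutations. They were adjusted within each family of 10 collagen pairs or 46 relations with the beta-actin ratio. Of the 46, 8 passed for Pearson's r. The share of all genes tested that would pass was not computed, so this count is not a result about the matrix genes. On simulated data for diabetic against normal, with 200 of 6027 probe sets changed, 28% of 2-fold and 72% of 4-fold changes were recovered, and 3.85% of calls were false. The simulated noise was normal and independent between probe sets, with no effect shared across an array and no outlying array. These rates therefore need not hold for the real arrays.

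The members and gene lists were chosen with earlier results of these data known. Named genes were those past the threshold, the 3 and 2 of each role with the smallest p in diabetic against normal and in treated against untreated diabetic muscle, the 5 with the smallest p in normal treated against normal and in the interaction, and a fixed set of common matrix genes; the other tested members are named to account for all. Of the other matrix genes, those past the threshold are named. Alternatives were larger pseudocounts (64 and a higher one), no filter or a stricter one (the 60th percentile), quantile normalization, a replicate block, 3'/5' ratios as covariates, array weights, a fit to the compared groups alone, the mean of a gene's probe sets, and arrays left out.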

Additional observations from a re-analysis of the deposited data

Results flagged for a closer look

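In 152 groups of 5 arrays (each named gene in each group, with the second Timp1 probe set), 9 (5.92%) had an array far from the other 4, by Dixon's criterion of a gap over 0.71 of the group's range. Chance flags about 1 in 20 groups. Log2 signals are given.

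Diabetic replicate 5 stood low for the matrix protease inhibitor Timp1 on both probe sets, at 11.03 against 12.18 for the nearest diabetic array on the brighter one and at 8.96 against 11.44 on the dimmer one. The same array was low for the proteoglycan Bgn, at 11.89 against 12.51. Treated normal replicate 5 stood low for Col15a1 (9.13 against 10.56), Col3a1 (10.65 against 14.01) and the collagen chaperone Serpinh1 (11.03 against 11.73). Diabetic replicate 3 was low for Col26a1 (7.22 against 8.92), normal replicate 5 was low for Fmod (7.32 against 9.68), and treated diabetic replicate 2 was high for Col4a5 (9.27 against 8.46).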

How the results depend on the processing

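The number of these genes past the threshold in diabetic against normal muscle was 1 as reported. It was 2 with the highest pseudocount or with the stricter filter (Col15a1 and Itga7 in both), 2 with only the compared groups fitted (Col15a1 and Col3a1), 5 with array weights (Adam10, Col15a1, Itga7, Lamc1 and Timp3) and 5 in the fit that dropped the 3 arrays with high Gapdh ratios (Col15a1, Dcn, Itga7, Lamc1 and Timp3). It was 0 with no filter, with the 3'/5' ratios as covariates and without diabetic replicates 1 and 3, which stand apart. Leaving out 1 array at a time gave 0 to 3. The count over all probe sets, 110 as reported, was 62 with no filter, 32 with the ratios as covariates, 515 with array weights, 71 with only the compared groups, 464 in the fit that dropped those 3 arrays, 3 without diabetic replicates 1 and 3, and 24 to 247 with 1 array left out. The causes were not tested.

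In treated against untreated diabetic muscle the count was 0, and 0 to 1 with 1 array left out. In treated diabetic against normal muscle it was 0, and 2 in the fit that dropped those 3 arrays (Dcn and Lamc1). In normal treated against normal muscle and in the interaction it was 0 in each alternative run. Over all probe sets the counts, with their range over the alternatives, were 30 (1 to 112) for treated against untreated diabetic muscle, 4 (0 to 19) for normal treated against normal, 0 (0 to 359) for treated diabetic against normal and 10 (1 to 40) for the interaction. The interaction was not fitted to the compared groups alone, since it needs all 4 groups.

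Col15a1 kept its sign in each of 32 alternatives for diabetic against normal and passed in 22, with adjusted p from 0.00663 to 0.387 and a difference from -1.45 to -1.09. The dimmer Timp1 probe set passed in 14 of 31 there and in 9 of 31 for treated against untreated diabetic muscle. Of 2723 values of named genes under an alternative, 2654 kept their sign, 27 lost and 27 gained a call, and 0 calls turned sign.

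The labels do not say whether replicate numbers pair the samples. Over 30 same-number pairs the correlation of deviations ran from -0.28 to 0.62 (mean 0.08), with 11 over 0.1. For 120 pairs of unlike number it ran from -0.49 to 0.41 (mean -0.02), with 33 over 0.1. Only 6 of 20 arrays went best with their own number. These values do not settle whether the numbers mark a weak pairing, and the main fit used none. With the replicate block the count in diabetic against normal muscle was 1 gene (106 probe sets), and the dimmer Timp1 probe set gained a call in treated against untreated diabetic muscle (-2.13, adjusted p = 0.011).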

Other observations

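The matrix genes varied among replicates about as much as other genes. The median SD of log2 signal within groups was 0.56 over the 45 tested genes and 0.53 over all genes. The proteoglycan Fmod had the widest spread (SD 1.29), followed by the collagen chaperone Serpinh1 (1.15), tenascin C, Tnc (1.05), Col3a1 (1.03) and lumican, Lum (1.01).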
